A study of Mus musculus with 6 samples.

Results

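The Sfmbt2 cluster miRNAs were chosen by name from a table of 649 mature miRNA entries. An entry was a member if any of its names belonged to the miR-297, miR-466, miR-467 or miR-669 families and it had at least 1 count in the 4 libraries used. This gave 22 of the 649 entries, of which 5 were miR-466, 8 were miR-467 and 9 were miR-669. No miR-297 entry was listed, and 0 entries with these names were left out for lack of counts. The rule used detection only, so the presence of counts in members is not a result.

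MicroRNAs (miRNAs) are short RNAs that guide repression of messenger RNAs, mostly through pairing of the seed, bases 2 to 8 of the mature strand. A hairpin precursor is cut into a 5p and a 3p strand, and either can be loaded into the silencing complex. The cluster lies in an intron of Sfmbt2, a Polycomb-related gene that is expressed from the paternal allele in mouse extraembryonic tissue and is needed for placental development. The expanded cluster is specific to rodents. In cultured cells, miR-467 has been reported to rise with high glucose and to repress thrombospondin-1, an inhibitor of vessel growth. In mouse cells, miR-669a has been reported to repress the muscle regulator MyoD.

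Small RNA was sequenced from skin of C57 mice, an inbred laboratory strain, taken at day 14 from a normal ulcer or a diabetic ulcer. The labels give 3 samples per group and do not give the age or sex of the mice, how diabetes was induced, or whether each sample came from a separate mouse. The samples numbered 3 were left out of the main comparison because most of their counts follow from the other samples of their group. The 4 libraries used were normal ulcer 1 and 2 and diabetic ulcer 1 and 2, with 8949104, 13421603, 9309055 and 10762761 miRNA counts in that order.

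The libraries held miRNAs of skin and of other tissues. All 5 keratinocyte markers, among them miR-203-3p and miR-205-5p, were listed, with summed levels of 18010 to 49340 CPM. CPM are counts per 1000000 of the library total after scaling by TMM, a normalization that limits the weight of dominant miRNAs. All 5 skeletal muscle markers were listed, and miR-1a-3p led them with up to 8721325 counts in a library. Markers of early embryo and trophoblast were nearly absent. Of the miR-290 cluster only both strands of miR-293 were listed, with at most 5 counts in a library, and none of the 3 miR-302 markers was listed. In bulk tissue, fewer cells of a type and less RNA per cell cannot be told apart.

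The mature sequences carry the repeats that define the family and show which entries can exchange reads. They are given as deposited, 5′ to 3′, with T for U and the seed in capitals. The miR-467 strands named 5p, and miR-467h, whose name gives no strand, all hold AAGTG within or across the seed near their 5′ end.
miR-467a-5p: tAAGTGCCtgcatgtatatgcg
miR-467b-5p: gTAAGTGCctgcatgtatatg
miR-467c-5p: tAAGTGCGtgcatgtatatgtg
miR-467d-5p: tAAGTGCGcgcatgtatatgcg
miR-467e-5p: aTAAGTGTgagcatgtatatgt
miR-467h: aTAAGTGTgtgcatgtatatgt

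The 3p strands carry ACATAC repeats, and the pairs shown differ by a shift of 1 base or in a few positions.
miR-466a-3p/miR-466e-3p: tATACATAcacgcacacataaga
miR-466b-3p/miR-466c-3p/miR-466p-3p: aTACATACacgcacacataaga
miR-467a-3p: cATATACAtacacacacctaca
miR-467d-3p: aTATACATacacacacctacac
miR-669a-3p/miR-669o-3p: aCATAACAtacacacacacgtat

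The miR-669 5p strands carry TGTGTG repeats, and the first and the last of the following share a seed.
miR-669a-5p/miR-669p-5p: aGTTGTGTgtgcatgttcatgtct
miR-669c-5p: aTAGTTGTgtgtggatgtgtgt
miR-669o-5p: tAGTTGTGtgtgcatgtttatgt
miR-669l-5p: aGTTGTGTgtgcatgtatatgt

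The members were 21 to 24 bases long and had 16 seeds. Of these seeds 5 were shared, by 11 members in all, and 0 of the 16 occurred in any other entry of the table. The seed GTTGTGT was held by 3 members, namely miR-669a-5p/miR-669p-5p, miR-669f-5p and miR-669l-5p. The seed AAGTGCG was shared by miR-467c-5p and miR-467d-5p, and TAAGTGT by miR-467e-5p and miR-467h. The repeats divided the strands. ACATAC, read on the mature strand, was in 7 of 7 members named 3p, in 0 of 13 named 5p and in 0.797% of the 627 other entries. TGTGTG was in 8 of 13 members named 5p, in 0 of 7 named 3p and in 1.59% of the other entries. GCATGT was in 12 of 13 members named 5p and in 0.159% of the other entries. A motif here is a match of letters and not a binding site.

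Near-identity limits what a count of 1 member means. For 16 of 22 members (72.7%), another entry matched with at most 1 mismatch when shifted by up to 2 bases, against 59 of 627 other entries (9.4%). In all 22 the nearest entry was itself a member. For 6 members the match had no mismatch at all: miR-466a-3p and miR-466b-3p, miR-467a-5p and miR-467b-5p, and miR-467a-3p and miR-467d-3p each form a pair shifted by 1 base. Only the miR-466 pair shares its 3′ end, and the miR-467 pairs differ at both ends. Reads that are trimmed or extended at their ends could be counted under either name of such a pair. A further limit is that 4 members merge several miRNAs of identical sequence, so that the 22 entries hold 27 names.

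All places below are on GRCm38 and come from exact matches to the annotated miRNA transcripts of GENCODE release M21. Of the 22 members, 21 matched only within Sfmbt2, which lies on the plus strand of chromosome 2 from 10370510 to 10595253. Their places ran from 10467248 to 10514662, a span of 47.4 kb that holds 0 annotated exons of the gene and so lies within 1 intron. GENCODE lists 119 miRNA genes inside Sfmbt2. The exception was miR-467h, which matched 4 places on chromosome 9 outside annotated protein-coding and long non-coding genes. The label of the cluster therefore holds for 21 of the 22 members by position and for miR-467h by name and sequence only.

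Within the intron the sequences recur in tandem. miR-467a-5p matched 12 places, with successive copies 2413 to 2470 bases apart (median 2451 bases). The merged miR-466a-3p entry matched 14 places and the merged miR-669a-5p entry 15 places, with the same median spacing to within a base but wider ranges, 1909 to 4896 bases and 2037 to 6379 bases. In all, 8 members matched 10 or more places, 4 matched 2 to 9 and 10 matched 1. Among those with 1 place were miR-467c-5p (10473941 to 10473962), miR-467e-5p (10505731 to 10505752) and miR-669c-5p (10509319 to 10509340). For members with many places, the counts cannot be divided among the copies.

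The cluster was a minor part of the libraries. All 22 members together took 362 and 275 counts in the normal and 344 and 741 counts in the diabetic libraries. Scaled to library totals alone this was 40.45 CPM (95% Wilson interval 36.5 to 44.8), 20.5 CPM (18.2 to 23.1), 36.95 CPM (33.3 to 41.1) and 68.85 CPM (64.1 to 74.0). Amplified reads are not independent molecules, and the intervals hold counting error alone. The most abundant member, miR-467a-5p, ranked 270 among 649 entries by mean CPM. Between 10 and 15 members had under 10 counts in a given library.

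After TMM scaling 3 libraries were nearly alike and diabetic ulcer 2 stood apart. The summed level was 30.4, 32.8, 31.1 and 68.0 CPM in the 4 libraries, in the same order. Diabetic ulcer 1 was at 0.983 times the mean of the normal libraries and diabetic ulcer 2 at 2.15 times. The group means were 31.6 ± 1.70 CPM for the normal and 49.55 ± 26.1 CPM for the diabetic libraries (each SD, n = 2), which gives a log2 ratio of 0.65. The spread between the diabetic libraries exceeded the difference between the group means. Without diabetic ulcer 2 the log2 ratio was 0.04.

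**Figure D1:**
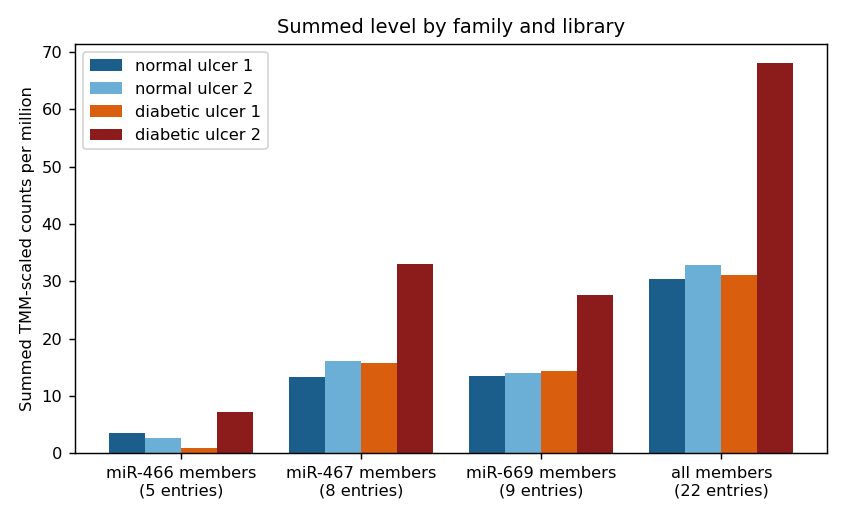
Summed TMM-scaled CPM of the miR-466, miR-467 and miR-669 members and of all 22 members, with 1 bar per library. For all members the bars of both normal libraries and of diabetic ulcer 1 lie between 30.4 and 32.8 CPM, and that of diabetic ulcer 2 is at 68.0 CPM.

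The 3 families shared this order to differing degrees. miR-467 members summed to 13.4, 16.1, 15.7 and 33.05 CPM in the same order. miR-669 members summed to 13.5, 14.1, 14.5 and 27.7 CPM, or to 12.7, 12.65, 11.5 and 20.6 CPM with the reads that the deposited TPM gives for 1 of them, miR-669a-3p/miR-669o-3p. In both families diabetic ulcer 1 lay close to the normal libraries and diabetic ulcer 2 above them. miR-466 members were rarer and spread more, at 3.53, 2.63, 0.904 and 7.25 CPM. There diabetic ulcer 1 was the lowest library and diabetic ulcer 2 the highest, 8.03 times apart.

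The deposited counts and TPM disagree on miR-669a-3p/miR-669o-3p, so tallies that include it are given from the counts and then with the reads that its TPM stands for. Diabetic ulcer 2 held the highest level of the 4 libraries for 16 of the 22 members (15 with the TPM reads), and diabetic ulcer 1 for 0. Normal ulcer 1 was highest for 5 members and normal ulcer 2 for 1. Among the 8 members with enough counts to be tested, diabetic ulcer 2 was highest for 8 of 8, or 7 of 8 with the TPM reads, where it was highest for 29.1% of all 443 tested entries. Of these 8, miR-466a-3p/miR-466e-3p passed the filter on low counts only through normal ulcer 1 and diabetic ulcer 2. Its place in this tally therefore depends on its high count in diabetic ulcer 2. Members share sequence and, but for miR-467h, a host gene, so they are not independent of each other. Between the diabetic libraries, the median log2 ratio of number 2 over number 1 was 1.01 over the tested members, 1.06 without the disputed entry, and 0.07 over all tested entries. Between the normal libraries it was -0.13 over tested members and -0.10 over all tested entries.

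**Figure D2:**
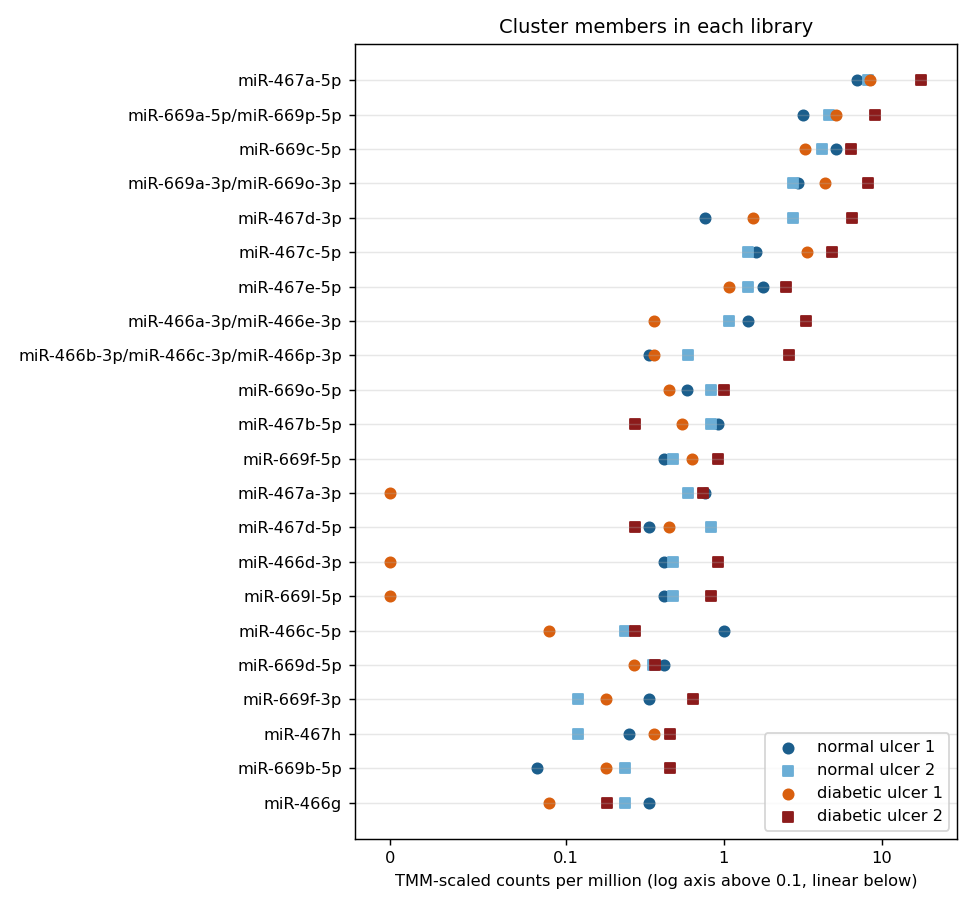
TMM-scaled CPM of each of the 22 members (rows, ordered by mean level) in each of the 4 libraries, on an axis that is logarithmic above 0.1 and linear below. Diabetic ulcer 2 is the rightmost point for 16 members (15 with the TPM reads of miR-669a-3p/miR-669o-3p, not drawn), and diabetic ulcer 1 is at 0 for 3.

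Other miRNAs also peaked in diabetic ulcer 2. The 4 leukocyte markers summed to 706, 863, 597 and 1370 CPM in the 4 libraries, and both strands of miR-126a, an endothelial miRNA, to 11780, 15830, 9978 and 18280 CPM. Both sums were highest in diabetic ulcer 2 and lowest in diabetic ulcer 1. Keratinocyte markers were lowest in diabetic ulcer 2, at 18010 CPM. Fibroblast markers summed to 17350, 11120, 15590 and 10840 CPM and were also lowest there. The sums of erythroid, liver and neural markers were highest in normal ulcer 2. Skeletal muscle markers had 128900, 1059000, 300100 and 444000 CPM and did not follow the cluster (TMM shrinks the total of normal ulcer 2, so its CPM can sum to over 1000000). The part of cell composition in the level of the cluster was not tested.

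The study's comparison asks which miRNAs differ between diabetic and normal ulcer skin. With edgeR's quasi-likelihood test on the 4 libraries, 0 of 8 tested members and 0 of 443 tested entries (0%) passed a Benjamini-Hochberg adjusted p of 0.05. At an unadjusted p under 0.05 there were 4 entries among the 443 (0.903%), and 2 of them were members, miR-467c-5p and miR-669a-3p/miR-669o-3p, both higher in diabetic ulcer by the counts, as were 0.451% of the 443. With the TPM reads of the second, 3 entries and 1 member, miR-467c-5p, had an unadjusted edgeR p under 0.05. DESeq2 on the 4 libraries also called 0 entries, with 3 at an unadjusted p under 0.05. Fitted log2 differences, diabetic minus normal, were above 0 for 8 of 8 tested members, against 211 of 443 tested entries (47.6%). With the TPM reads of miR-669a-3p/miR-669o-3p this was 7 of 8. The members' median was 0.82, or 0.66 with those reads, and that of all tested entries was -0.02.

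This direction rested on diabetic ulcer 2. Without it, the filter on low counts was run anew and 10 members passed. Of these, 4 were higher and 6 lower in diabetic ulcer by the counts, and the median was -0.27. They included the 8 members of the 4-library fit, of which 4 stayed above 0 and 4 fell below, from -1.70 to 1.20. The added members, miR-466c-5p and miR-467b-5p, met the filter only through normal ulcer 1 (12 and 11 counts), their highest library. Their lower sign is therefore tied to the filter, and the median of -0.27 is not read against that of the 4-library fit. Without diabetic ulcer 1 the median was 1.21, with 11 of 13 tested members higher by the counts. The members of the 4-library fit ran from 0.45 to 1.92. Of the added members, miR-466b-3p/miR-466c-3p/miR-466p-3p and miR-669o-5p met the filter only through diabetic ulcer 2 (28 and 11 counts), where they were highest. The added miR-466c-5p, miR-467a-3p and miR-467b-5p met it only through normal ulcer 1 (12, 9 and 11 counts). With its TPM reads, miR-669a-3p/miR-669o-3p stood at 2.1 and 1.31 CPM in normal ulcer 1 and 2. In diabetic ulcer 1 and 2 it stood at 1.355 and 1.01 CPM. No fit with a library left out was run on those reads. The filter also shapes the count of 8. It asked for about 10 counts, scaled to library size, in as many libraries as a group holds. The entry miR-466a-3p/miR-466e-3p met this only through normal ulcer 1 (17 counts) and diabetic ulcer 2 (36 counts). It had 9 counts in normal ulcer 2 and 4 in diabetic ulcer 1. When all 22 members were fitted without a filter, 15 were higher, against 54.9% of all 649 entries. Their median was 0.39, against 0.04 over all entries. Without miR-669a-3p/miR-669o-3p, 14 of 21 were higher and the median was 0.20.

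**Figure D3:**
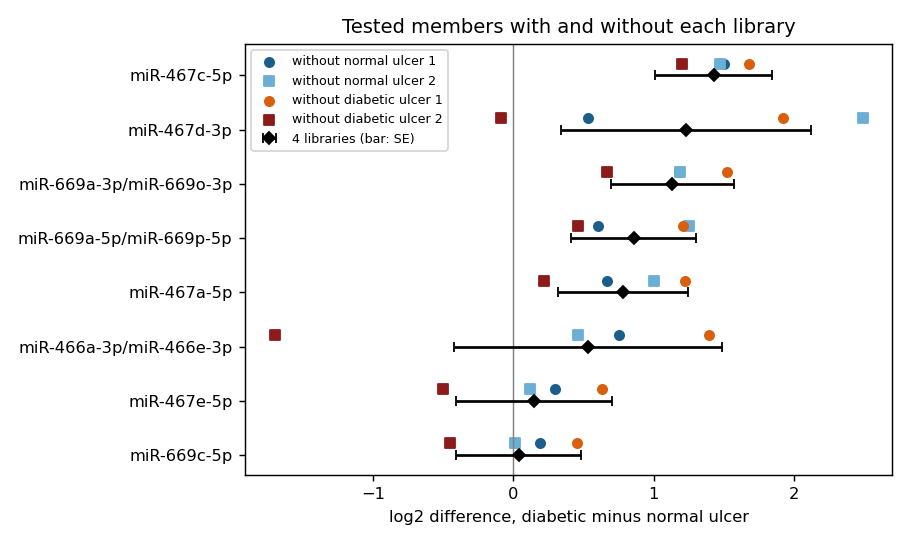
Log2 difference, diabetic minus normal ulcer, of the 8 tested members in edgeR over 4 libraries (black, with SE bars) and with each library left out in turn (coloured). Without diabetic ulcer 2 the values of miR-466a-3p/miR-466e-3p, miR-467d-3p, miR-467e-5p and miR-669c-5p fall below 0, and those of the other 4 members stay above 0, all from the counts.

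miR-467c-5p, which shares its seed with miR-467d-5p, had 19 and 12 counts in normal ulcer 1 and 2. It had 37 and 53 counts in diabetic ulcer 1 and 2. The groups did not overlap, with 3.34 and 4.87 CPM in the diabetic and 1.60 and 1.43 CPM in the normal libraries. Among tested members 4 had both diabetic libraries highest, or 3 with the TPM reads of miR-669a-3p/miR-669o-3p, as had 9.03% of all tested entries. The log2 difference of miR-467c-5p was 1.43 ± 0.42 (SE; edgeR's quasi-likelihood test, unadjusted p = 0.0159, adjusted p = 0.999). It had the smallest unadjusted p of all 443 entries and did not pass the adjusted test. The difference was 1.20 without diabetic ulcer 2 and 1.68 without diabetic ulcer 1. It was above 0 in 20 of 20 alternative settings. These refit the same deposited libraries, in which the groups did not overlap, so the tally is not independent support.

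miR-467a-5p, the most abundant member, had 83 and 68 counts in normal ulcer and 93 and 191 counts in diabetic ulcer. In CPM the normal libraries were at 6.97 and 8.11 and the diabetic libraries at 8.40 and 17.5. Diabetic ulcer 1 lay barely above normal ulcer 2, and diabetic ulcer 2 far above the rest. The log2 difference was 0.78 ± 0.46 (SE; edgeR adjusted p = 0.999), and 0.22 without diabetic ulcer 2. Its shifted partner miR-467b-5p went the other way, with 11 and 7 counts in normal ulcer and 6 and 3 in diabetic ulcer. Summed, the pair stood at 7.89 and 8.949 CPM in the normal libraries against 8.945 and 17.8 CPM in the diabetic ones, so that diabetic ulcer 1 no longer exceeded normal ulcer 2.

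miR-467e-5p had 21 and 12 counts in normal ulcer and 12 and 27 in diabetic ulcer, and the groups overlapped. Its log2 difference was 0.15 ± 0.56 (SE). miR-467d-5p had 3 to 7 counts and miR-467h 1 to 5 counts in a library, too few to be tested.

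miR-669a-5p/miR-669p-5p, the second most abundant member, had 38 and 39 counts in normal ulcer and 57 and 98 in diabetic ulcer. The levels were 3.19 and 4.65 CPM against 5.15 and 9.0 CPM, and the groups did not overlap. Its log2 difference was 0.86 ± 0.44 (SE; edgeR adjusted p = 0.999), and 0.46 without diabetic ulcer 2. miR-669c-5p, which has been reported to rise in ageing mouse liver, had 61 and 35 counts in normal ulcer and 36 and 69 in diabetic ulcer. Its groups overlapped, and the log2 difference was 0.04 ± 0.44 (SE). The 5 other miR-669 members named 5p had between 0 and 11 counts in a library.

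Among the 3p strands, miR-467d-3p had 9 and 23 counts in normal ulcer and 17 and 70 in diabetic ulcer. Diabetic ulcer 1 fell between the normal libraries, so that only diabetic ulcer 2 was apart. Its log2 difference was 1.23 ± 0.89 (SE; edgeR adjusted p = 0.999), and -0.09 without diabetic ulcer 2. miR-467a-3p, shifted from it by 1 base, had 9 and 5 counts in normal ulcer and 0 and 8 in diabetic ulcer. The pair together had 18, 28, 17 and 78 counts in the 4 libraries.

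miR-466a-3p/miR-466e-3p had 17 and 9 counts in normal ulcer and 4 and 36 in diabetic ulcer. Diabetic ulcer held both the lowest and the highest library, and the log2 difference was 0.53 ± 0.95 (SE; edgeR adjusted p = 0.999). The value was -1.70 without diabetic ulcer 2 and 1.39 without diabetic ulcer 1. miR-466b-3p/miR-466c-3p/miR-466p-3p, its shifted partner, had 4, 5, 4 and 28 counts. miR-466d-3p, which shares its seed with miR-466a-3p, had 5, 4, 0 and 10 counts. In each of the 3 entries diabetic ulcer 2 was highest.

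A count of 0 was found for miR-466d-3p, miR-467a-3p and miR-669l-5p in diabetic ulcer 1 and for no member in another library. In that library a count of 0 allows up to 3 counts, or 0.271 CPM. In the normal libraries these 3 miRNAs had 4 to 9 counts. miR-466g, with 4, 2, 1 and 2 counts, and miR-467b-5p had lower CPM in both diabetic libraries than in either normal one. Over all 22 members, 6 had both diabetic libraries above both normal ones (5 with the TPM reads of miR-669a-3p/miR-669o-3p) and 2 had both below. For all 649 entries these shares were 10.6% and 14%. miR-466c-5p was highest in normal ulcer 1, with 12 counts there against 1 to 3 in the other libraries.

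The balance of strands was compared between libraries with no test. Counts of members named 3p were 23.4% of all counts with a named strand in normal ulcer 1 (95% Wilson interval 19.3 to 28.1). The share was 25.7% (20.9 to 31.2) for normal ulcer 2. For diabetic ulcer 1 it was 22.1% (18.0 to 26.8), and for diabetic ulcer 2 it was 33.8% (30.5 to 37.3). The interval of diabetic ulcer 2 overlapped that of normal ulcer 2. Relative to diabetic ulcer 1, diabetic ulcer 2 had 3.36 times the 3p level, 5.98 times without miR-669a-3p/miR-669o-3p, and 1.87 times the 5p level. For miR-669a the 3p share was 37.1% to 47.95% by the counts. With the TPM reads of its 3p entry it was 39.7% and 22% in normal ulcer 1 and 2, and 20.8% and 10.1% in diabetic ulcer 1 and 2, so that no balance is read for this hairpin. For miR-467a and miR-467d together, with miR-467b-5p counted on the 5p side, the 3p share was 15.5% and 25.5% in normal ulcer. In diabetic ulcer it was 14.05% and 28.4%.

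**Figure D4:**
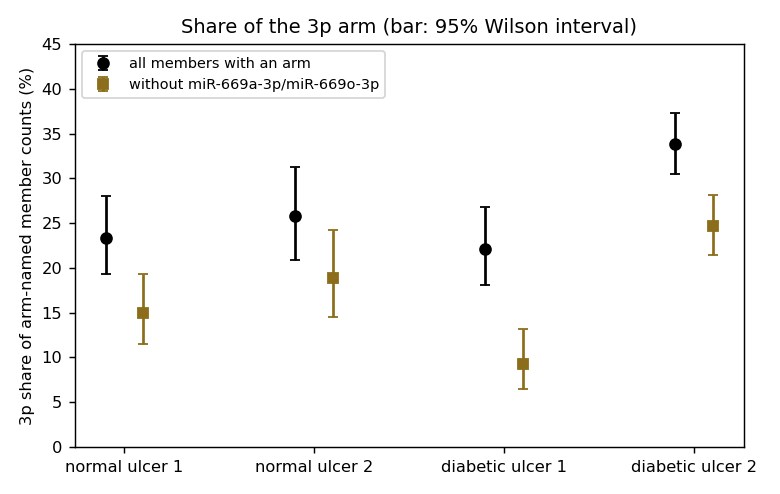
Percentage of arm-named member counts that fall on 3p strands in each library, with 95% Wilson intervals, for all such members (black) and without miR-669a-3p/miR-669o-3p (brown). Diabetic ulcer 2 is highest in both series, at 33.8% and 24.7%, and diabetic ulcer 1 is lowest, at 22.1% and 9.28%.

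For miR-669a-3p/miR-669o-3p the deposited counts and TPM disagreed. The count table gives 35 and 23 counts in normal ulcer 1 and 2 and 48 and 89 in diabetic ulcer 1 and 2, a log2 difference of 1.13 ± 0.44 (SE; edgeR's quasi-likelihood test, unadjusted p = 0.0452, adjusted p = 0.999). The deposited TPM values, 1.17 and 0.523 in normal ulcer and 0.711 and 0.492 in diabetic ulcer, stand for 25, 11, 15 and 11 reads. With those reads the log2 difference was -0.53, and on log2(TPM + 1) it was -0.19. Among 647 entries in both tables, this was the 1 entry whose count and TPM differed by over 0.5 reads in all 4 libraries. The other 21 members matched in all 4. The diabetic mean of the authors' comparison, deposited beside the TPM, was 82.8 for this entry. That mean followed the counts, at 0.931 times the 89 counts of diabetic ulcer 2. Whether the counts or the TPM hold the true value was not tested, so neither direction is relied on for this entry. Without it, the 3p share was still highest in diabetic ulcer 2, at 24.7% (21.5 to 28.1), and lowest in diabetic ulcer 1, at 9.28% (6.46 to 13.2), and the intervals of diabetic ulcer 2 and normal ulcer 2 (14.5 to 24.2) overlapped. The other 21 members summed to 27.5 and 30.1 CPM in the normal libraries, 26.7 CPM in diabetic ulcer 1 and 59.85 CPM in diabetic ulcer 2.

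**Figure D5:**
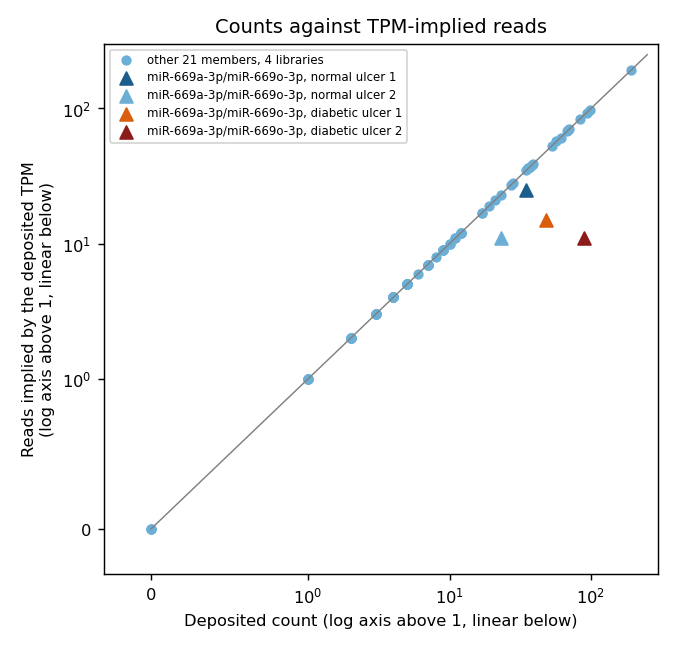
Reads implied by the deposited TPM (vertical) against the deposited count (horizontal) for the 22 members in 4 libraries, on axes that are logarithmic above 1 and linear below, with a line of equality. The triangles of miR-669a-3p/miR-669o-3p lie below the line in all 4 libraries, at 25, 11, 15 and 11 reads against 35, 23, 48 and 89 counts, and all other points lie on it.

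Most counts of the samples numbered 3 followed from the other libraries. In normal ulcer 3 the count lay within 1 read of the mean of normal ulcer 1 and 2 for 21 of 22 members. The exception was again miR-669a-3p/miR-669o-3p, at 18 where the mean of the counts is 29 and the mean of the TPM-implied reads is 18. In diabetic ulcer 3 the count equalled that of diabetic ulcer 1 or 2 for 17 of 22 members, and for 2 more it was within 1 read of their mean. The other 3 were neither copies nor means: miR-467a-5p had 31 counts, below all 4 libraries used, miR-669a-5p/miR-669p-5p had 167 and miR-669a-3p/miR-669o-3p had 109, both above all 4. With all 6 columns the edgeR log2 difference of miR-467a-5p was 0.40, against 0.78 without the samples numbered 3. As a reference, normal ulcer 1 equalled diabetic ulcer 1 or 2 for 1 member. Over all 6 columns edgeR called 0 of 438 entries (0%), and DESeq2 called 6 (1.37%), of which 2 were members, miR-467c-5p (adjusted p = 0.00632) and miR-669a-3p/miR-669o-3p (adjusted p = 0.0234). Over the 20 alternatives the adjusted p of edgeR, DESeq2 or limma ran from these values up to 1.0 for both. For miR-467c-5p, diabetic ulcer 3 repeats the 53 counts of diabetic ulcer 2, so that value entered the test a second time.

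The authors' deposited table of the comparison also turned on diabetic ulcer 2. Its mean for the diabetic group (the table's control) was 0.931 times the count of diabetic ulcer 2 for 22 of 22 members, within 1%, and for 630 of 630 entries counted in that library. Its mean for the normal group (the case) was matched within 1% for 22 of 22 members by a sum that gave normal ulcer 1, normal ulcer 2 and diabetic ulcer 1 weights of 0.283, 0.412 and 0.329. The table's overall mean equalled 3 parts of the case mean and 1 part of the control mean for 649 of 649 entries. By these values the deposited comparison sets diabetic ulcer 2 alone against the other 3 libraries, which is not the comparison in the labels. Of the 22 members, 18 in the authors' deposited table were higher in the diabetic column, with a median log2 fold change, normal over diabetic, of -0.92, and 0 had a q-value under 0.05, where 0.154% of all entries did. In the authors' deposited table, by its DESeq2 test, a p-value under 0.05 was given to 4 members and to 3.54% of all entries. They were miR-466b-3p/miR-466c-3p/miR-466p-3p (log2 fold change -2.55), miR-467d-3p (-1.91), miR-669a-3p/miR-669o-3p (-1.23) and miR-467a-5p (-1.12). miR-467c-5p, whose count in diabetic ulcer 1 enters the case mean, had a log2 fold change of -1.13 and p = 0.153 (DESeq2) in the authors' deposited table.

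Compared with other clusters in the same fit, 49 tested entries of the imprinted Dlk1-Dio3 cluster on chromosome 12 had a median log2 difference of -0.22, with 10 higher and 39 lower. The 38 tested miRNAs with names numbered above 1900 had a median of 0.09, with 23 higher and 15 lower. No entry of either list was called, and the difference between these lists and the Sfmbt2 cluster was not tested. The 5 tested entries outside the cluster whose pattern over the 4 libraries was most like its summed level were miR-690, miR-335-3p, miR-212-5p, miR-7b-5p and miR-6239. Their root mean square log2 distance from it was 0.0951 to 0.192, where the median over the tested entries outside the cluster was 0.558. miR-335-3p, for example, stood at 16.7 and 21.5 CPM in the normal libraries, 16.7 CPM in diabetic ulcer 1 and 41.2 CPM in diabetic ulcer 2. Over 4 libraries such likeness is a description.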

How the data were processed

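Small RNA was sequenced from mouse skin, with 3 deposited samples per group. The authors deposited 1 table of raw read counts (whole numbers) for mature miRNAs and 1 table of TPM values. The second table also holds the authors' deposited fold change, its log2 value, p-value and q-value, and its headers name an unpaired DESeq2 comparison. Its base means and miRNA lengths are other values per the file headers. Per the submitters' processing notes the builds were GRCm38 and mm10. How reads were aligned and counted, and the miRNA release, is not given in the sources used here. Columns were matched to samples by the codes in the titles.

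Every entry was fitted with edgeR 4.0.16 (glmQLFit, glmQLFTest; R 4.3.3) on the counts of normal ulcer 1 and 2 against diabetic ulcer 1 and 2, with TMM scaling (factors 1.33, 0.624, 1.19 and 1.01), filterByExpr at its defaults (minimum count 10) and Benjamini-Hochberg adjustment over 443 entries. The SE is the size of the log2 difference over the square root of F. CPM are counts over TMM-scaled totals unless stated. A count of 0 allows up to 3 counts. The labels do not tie samples to different animals; the p-values then reflect the variation among these samples, which may be technical. An exact two-sided permutation test of 2 against 2 libraries cannot go below p = 0.333, so none was run. The code was tested on simulated data. Alternatives used DESeq2 1.42.0 and limma 3.58.1, other scalings and filters, TPM, all 6 columns, a replicate block and leaving out each library.

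TPM was turned into reads by dividing by the median TPM per count of each library. Sequences are those of the count table, and 1 of 22 members was also in the RefSeq miRNA table (GRCm38.p6). The members, lists and tests were chosen with earlier results of these data known. Members named by rule were the 8 most abundant, the tested members with the 4 largest and 4 smallest differences and the 4 smallest unadjusted p, 3 named in an earlier account, the most abundant 5p and 3p entry of each family, and both arms of well-counted hairpins. Rarer members were named after their values were seen.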

Additional observations from a re-analysis of the deposited data

How the results depend on the processing

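Of 20 alternatives, 0 edgeR settings called a member. Counts of calls over all entries rose from 0 to 1 with library totals, and ranged from 0 to 6 when single libraries were left out (6 without normal ulcer 1, none a member); DESeq2 on all 6 columns, added after seeing the data, called 6, of which 2 were members. The median log2 difference of the 8 tested members, 0.82, was 0.09 on log2(TPM + 10). There the added 10 exceeds every member's TPM, at most 8.54 in the 4 libraries, which by arithmetic pulls log2 differences towards 0. With single libraries left out, the filter was run anew and the set of members changed. The median by the counts then ranged from -0.27 over 10 members (without diabetic ulcer 2) to 1.21 over 13 members (without diabetic ulcer 1). Some added members passed only through the library where they were highest, so these medians are not like for like. The summed log2 ratio, 0.65, ranged from 0.04 without diabetic ulcer 2 to 1.11 without diabetic ulcer 1. With single libraries left out, log2 differences ranged from -1.70 to 1.39 for miR-466a-3p/miR-466e-3p, -0.09 to 2.49 for miR-467d-3p, -0.50 to 0.63 for miR-467e-5p and -0.45 to 0.45 for miR-669c-5p, each lowest without diabetic ulcer 2. Signs also turned for miR-669c-5p with upper quartile scaling (-0.00386), limma-voom (-0.04) and the replicate block (-0.02), and for miR-466a-3p/miR-466e-3p with limma-voom (-0.17). The causes were not tested. miR-669a-3p/miR-669o-3p turned to -0.19 and -0.03 on log2 TPM with pseudocounts of 1 and 10, and to -0.53 with its counts taken from TPM, an alternative chosen after seeing the data. miR-467c-5p, miR-467a-5p and miR-669a-5p/miR-669p-5p were above 0 in all 20, which refit the same deposited libraries and are not independent.

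With replicate number as a block, edgeR called 0 entries and 0 members, with 20 entries and 4 members at an unadjusted p under 0.05 (4 and 2 without the block). The numbers are not shown to pair samples, although same-numbered libraries deviated together (r = 0.447 across tested entries). With 2 libraries per group and at most 191 counts per member in any library, depth and replication limit every value.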
